A study of Solenopsis invicta with 64 samples.

Results

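In every one of 8 ovaries of Sb/Sb fire ant gynes, 20 genes had a lower RNA level than in any of 15 SB/SB ovaries. The 20 were chosen on these measured ovary levels, out of 15512 genes with LOC symbols. A level here is in CPM, the gene's counts per M (mega) counts of its library. A gene qualified if its 8 Sb/Sb ovaries all lay below its 15 SB/SB ovaries, if the mean of those 15 was at least 5 CPM, and if the Sb/Sb mean was at most 0.75 of it. Its mean in monogyne ovaries, with 0.5 CPM added, also had to be under 16 times its mean in monogyne brains with the same addition, which removed genes nearly confined to the ovary. Genes in 5 runs of LOC numbers were left out by the same rule. Of 7988 genes with an SB/SB mean of at least 5 CPM, 32 separated all Sb/Sb from all SB/SB ovaries in this direction (0.401%), and 60 did so in the opposite direction. Because the separation chose the genes, it is described here and was not tested.

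The animals were gynes (winged, unmated young queens) of Solenopsis invicta, the red imported fire ant, caught in the field on mating flight days and labelled as reproductively mature. Each of 64 libraries came from the brain or from the ovary of a single animal and was prepared by Smart-seq2, which amplifies cDNA by PCR without molecular identifiers. There were 8 animals in each of 4 groups: Sb/Sb, SB/Sb and SB/SB gynes of polygyne colonies, and SB/SB gynes of monogyne colonies. No group was treated, and genotype and social form are as labelled. The ovary of SB/SB polygyne animal 104D held 73573 counts and was left out, so 31 ovaries were used, 7 of them polygyne SB/SB. The other ovaries held 10.1 to 22.6 M counts and the brains 9.46 to 26.9 M. Title numbers shared among polygyne animals are never shared with monogyne animals, so social form and whatever the number stands for cannot be told apart.

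The supergene on chromosome 16 is a stretch of linked genes that passes on whole, because its variants, SB and Sb, do not recombine in SB/Sb females. Colonies whose workers are all SB/SB keep a single egg-laying queen (monogyne), and colonies with SB/Sb workers accept several (polygyne). Sb/Sb females are known to survive poorly as queens. The insect ovary consists of ovarioles, tubes in which nurse and follicle cells support the growing eggs, so its RNA is a mixture over cell types and stages. In such bulk samples, fewer cells of a type and less RNA per cell cannot be told apart.

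None of the 20 genes has a synonym in the gene table used here, and that table holds no product names, so their functions are not given. What is known of them is their place. In the table of assembly UNIL_Sinv_3.0, 18 of the 20 have a chromosome. Chromosome 16, which carries the supergene, held 5 of them: LOC105193228, LOC105193134, LOC105193834, LOC105199719 and LOC105193831. That is 27.8% of the placed genes, beside 8.37% (608 of 7264) of the placed genes with an SB/SB mean of at least 5 CPM. The latter share still includes the 5 runs of LOC numbers and the genes nearly confined to the ovary, which the rule left out. Of the 32 genes that separated the ovaries, 8 were in those runs. The shares thus cover unlike sets, and their difference was not tested. In the order of genes on chromosome 16 the 5 members stood at places 926, 1010, 1078, 1183 and 1186 of 1233, all in the last part of that order, and none was next to another. The other 13 were spread over 8 chromosomes: 3 on chromosome 6, a pair each on chromosomes 1, 3 and 9, and a single gene each on chromosomes 2, 10, 12 and 15. LOC105207492 and LOC105194425 had no chromosome.

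The nearest genes tested in the ovary were also looked up, and not all of them stood directly next to the member. The farthest, LOC105202583, stood at place 834 on its chromosome, and the member LOC105202580 at place 884. Of the 36 nearest genes tested on either side of the 18 placed members, 2 were called lower and 1 higher in Sb/Sb than in polygyne SB/SB ovaries, at an adjusted p under 0.05 in edgeR. The 2 are 5.56% of the neighbours, and 5.88% of all 10797 genes tested were called lower in that comparison. The 1 neighbour called higher, LOC105193135, lies next to LOC105193134 on chromosome 16 and had a log2 change of 1.39 in the ovary and 2.42 in the brain. The 2 called lower were LOC105193835 (-0.53), next to LOC105193834 on chromosome 16, and LOC105203597 (-0.32), next to LOC105203598 on chromosome 3. These 3 neighbours were picked out after their values were seen.

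The Sb/Sb mean of the 20 genes was 22.5% to 68.0% of the mean of the 15 SB/SB ovaries, with a median of 52.6%, a 1.47-fold to 4.44-fold lower level with a median of 1.90-fold. LOC105207492 had the lowest share. Its Sb/Sb ovaries ranged 6.62 to 141 CPM (median 68.4), the SB/Sb ovaries 50.8 to 217 CPM (median 113), the polygyne SB/SB ovaries 213 to 328 CPM (median 294) and the monogyne SB/SB ovaries 245 to 435 CPM (median 351). The Sb/Sb and SB/SB ranges lie well apart, and the SB/Sb animals bridge them. Of those 8 SB/Sb ovaries, 7 lay below the lowest SB/SB ovary and 3 above the highest Sb/Sb ovary.

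LOC105194425, the other gene without a chromosome, was a low-level gene, at 30.5% of the SB/SB mean. Its ovary levels ranged 2.15 to 5.27 CPM (median 4.05) in Sb/Sb, 3.53 to 11.2 CPM (median 6.07) in SB/Sb, 6.47 to 18.9 CPM (median 11.8) in polygyne SB/SB and 8.31 to 20.2 CPM (median 11.3) in monogyne SB/SB animals. The smallest count behind these values was 35, the smallest of any member in an ovary. With CPM scaled by the TMM factors it was the only one of the 20 that no longer met the rule.

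**Figure D1:**
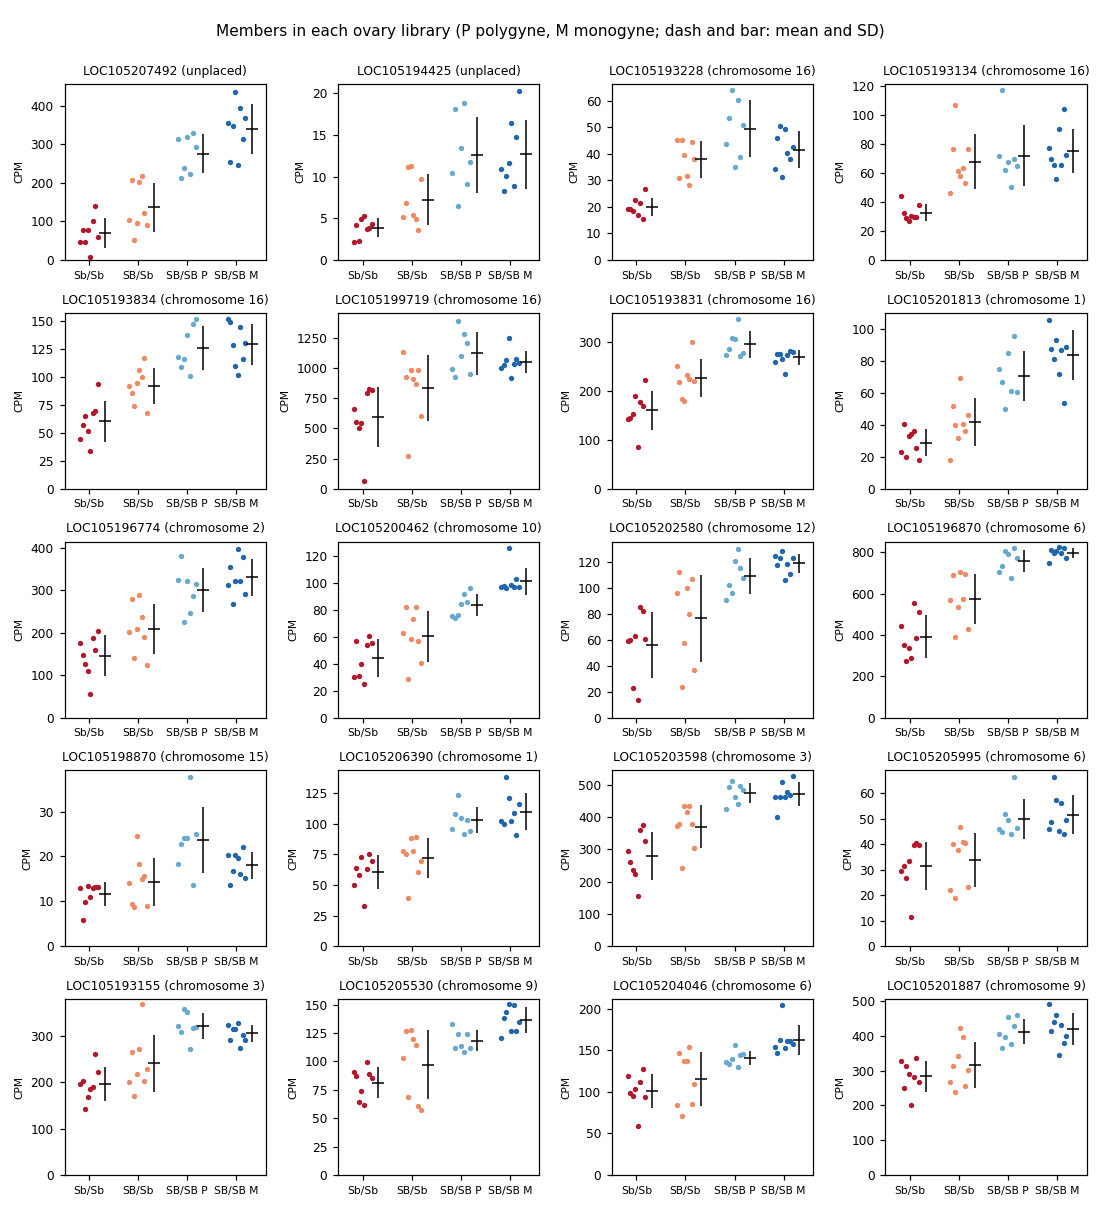
Ovary CPM of the 20 genes in each of 31 libraries, 1 panel a gene. Points are libraries, and the dash with its bar is the group mean with its SD (n = 8, and 7 for polygyne SB/SB). In every panel the Sb/Sb points lie below both SB/SB groups, by the choice of the genes. The SB/Sb points stay above the Sb/Sb range in LOC105193228 and LOC105193134 and below the SB/SB range in LOC105206390. In the other panels they reach into both ranges.

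On chromosome 16 the 5 genes averaged 44.2% to 57.1% of the SB/SB mean in Sb/Sb ovaries. LOC105193228 ranged 15.3 to 26.6 CPM (median 19.2) in Sb/Sb, 28.1 to 45.4 CPM (median 38.8) in SB/Sb, 34.9 to 63.9 CPM (median 50.7) in polygyne SB/SB and 31.4 to 50.3 CPM (median 41.5) in monogyne SB/SB ovaries. LOC105193134 ranged 27.1 to 44.4 CPM (median 30.1) in Sb/Sb, 46.0 to 107 CPM (median 62.3) in SB/Sb, 50.2 to 117 CPM (median 67.3) in polygyne SB/SB and 56.2 to 105 CPM (median 71.0) in monogyne SB/SB ovaries. For both genes the 8 Sb/Sb ovaries lay below all 8 SB/Sb ovaries too, while the SB/Sb and SB/SB ranges overlapped. These are the 2 members with that separation, and 0.0501% of the 7988 genes at 5 CPM or more had it.

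The remaining members on chromosome 16 had SB/Sb ovaries that overlapped both homozygotes. LOC105193834 averaged 60.5 ± 18.4 CPM in Sb/Sb, 92.3 ± 16.2 in SB/Sb, 126 ± 19.6 in polygyne SB/SB and 129 ± 18.7 in monogyne SB/SB ovaries (SD, n = 8, and 7 for polygyne SB/SB). LOC105193831 averaged 161 ± 40.0 CPM in Sb/Sb, 227 ± 38.0 in SB/Sb, 296 ± 27.2 in polygyne SB/SB and 269 ± 15.0 in monogyne SB/SB ovaries. LOC105199719 was at 61.2 to 830.3 CPM (median 605) in Sb/Sb, 269 to 1134 CPM (median 919) in SB/Sb, 927 to 1393 CPM (median 1102) in polygyne SB/SB and 914 to 1249 CPM (median 1037) in monogyne SB/SB ovaries. Its lowest Sb/Sb value came from animal 19G, and the next lowest Sb/Sb ovary had 505 CPM.

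Among the 13 genes of other chromosomes, LOC105201813 of chromosome 1 had the lowest share, 37.1% of the SB/SB mean. Its ovaries ranged 17.8 to 40.7 CPM (median 29.3) in Sb/Sb, 18.2 to 69.4 CPM (median 40.3) in SB/Sb, 49.6 to 95.2 CPM (median 66.7) in polygyne SB/SB and 53.6 to 105 CPM (median 87.1) in monogyne SB/SB animals. Of its SB/Sb ovaries, 6 lay below the lowest SB/SB ovary and 4 within the Sb/Sb range. LOC105196774 of chromosome 2 stood at 46.0%, with 146 ± 48.0 CPM in Sb/Sb, 209 ± 58.7 in SB/Sb, 301 ± 52.2 in polygyne SB/SB and 331 ± 44.1 in monogyne SB/SB ovaries. LOC105200462 of chromosome 10 stood at 47.3%, with 44.0 ± 14.2 CPM in Sb/Sb, 60.4 ± 19.0 in SB/Sb, 83.5 ± 8.42 in polygyne SB/SB and 101 ± 10.04 in monogyne SB/SB ovaries. In each of these genes the SB/Sb mean lay between the means of the homozygotes.

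LOC105202580 of chromosome 12 had the widest spread of Sb/Sb values among these 13 relative to its mean. It ranged 13.6 to 85.0 CPM (median 59.9) in Sb/Sb, 23.4 to 112 CPM (median 87.6) in SB/Sb, 90.8 to 129.9 CPM (median 107) in polygyne SB/SB and 106 to 128 CPM (median 121) in monogyne SB/SB ovaries. The 2 lower values in Sb/Sb ovaries, 13.6 and 23.0 CPM, stood well under the other 6. LOC105196870 of chromosome 6 ranged 272 to 557 CPM (median 368) in Sb/Sb, 390.3 to 705 CPM (median 571) in SB/Sb, 676 to 821 CPM (median 774) in polygyne SB/SB and 749 to 825 CPM (median 803) in monogyne SB/SB ovaries. Both SB/SB groups were narrow in it and both groups with Sb were broad.

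The highest shares of the SB/SB mean, and so the mildest differences, were those of LOC105193155 on chromosome 3 (62.9%), LOC105205530 on chromosome 9 (63.6%), LOC105204046 on chromosome 6 (66.4%) and LOC105201887 on chromosome 9 (68.0%). LOC105193155 averaged 197 ± 35.9 CPM in Sb/Sb, 241 ± 61.4 in SB/Sb, 321 ± 28.4 in polygyne SB/SB and 306 ± 18.4 in monogyne SB/SB ovaries. LOC105201887 averaged 283 ± 44.5 CPM in Sb/Sb, 317 ± 65.8 in SB/Sb, 412 ± 36.6 in polygyne SB/SB and 419.7 ± 46.1 in monogyne SB/SB ovaries. No gene that met the other criteria was removed by the limit of 0.75. The members LOC105206390 of chromosome 1 (57.0%), LOC105203598 of chromosome 3 (59.0%), LOC105205995 of chromosome 6 (62.0%) and LOC105198870 of chromosome 15 (56.1%) fell in the middle of the order, and their SB/Sb and Sb/Sb ranges overlapped.

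LOC105203598 averaged 279 ± 74.8 CPM in Sb/Sb, 370.3 ± 66.9 in SB/Sb, 474 ± 31.3 in polygyne SB/SB and 471 ± 37.1 in monogyne SB/SB ovaries. LOC105198870, which had the lowest mean ovary CPM of the members after LOC105194425, lay between 5.85 and 13.5 CPM in Sb/Sb, 8.66 and 24.5 in SB/Sb, 13.7 and 37.6 in polygyne SB/SB and 13.7 and 22.1 in monogyne SB/SB ovaries. LOC105205995 averaged 31.5 ± 9.53 CPM in Sb/Sb, 33.8 ± 10.6 in SB/Sb, 49.8 ± 7.76 in polygyne SB/SB and 51.7 ± 7.68 in monogyne SB/SB ovaries. In LOC105205995 the means of Sb/Sb and SB/Sb ovaries differed by less than either SD, and 7 of 8 SB/Sb ovaries lay below the lowest SB/SB ovary. LOC105205530 averaged 81.4 ± 13.4 CPM in Sb/Sb, 97.2 ± 30.0 in SB/Sb, 118 ± 9.23 in polygyne SB/SB and 136 ± 11.1 in monogyne SB/SB ovaries. LOC105204046 averaged 101 ± 20.7 CPM in Sb/Sb, 116 ± 32.5 in SB/Sb, 140.5 ± 8.65 in polygyne SB/SB and 162 ± 17.6 in monogyne SB/SB ovaries. In both genes, 4 SB/Sb ovaries lay below the lowest SB/SB ovary and the other 4 lay within the SB/SB range, and SB/Sb had the largest SD of the 4 groups.

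At the edge of the rule the separation was thin. In LOC105198870 the highest Sb/Sb ovary had 13.51 CPM and the lowest SB/SB ovary 13.65 CPM, the smallest gap of any member. Just outside, LOC105203849 had 84.6 CPM in its highest Sb/Sb ovary and 84.4 CPM in its lowest SB/SB ovary, with an Sb/Sb mean of 67.1 and an SB/SB mean of 102 CPM. LOC105199303 (138 and 137 CPM) and LOC105198938 (218 and 216 CPM) missed the rule in the same way. Ignoring the runs of LOC numbers would have given 26 genes, and ignoring the limit against brain 24.

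Some libraries stood apart in these genes. The 20 members summed to 2654 ± 654 CPM in Sb/Sb ovaries, 3626 ± 710 in SB/Sb, 4918 ± 224 in polygyne SB/SB and 5024 ± 212 in monogyne SB/SB ovaries. The Sb/Sb ovary of animal 19G had the lowest sum, 1372 CPM, and was the lowest Sb/Sb ovary in 13 of the 20 genes. A single gene, LOC105192919, took 11.8% of its counts. The SB/Sb ovary of animal 15A had the lowest sum of its group, 2222 CPM, and was the lowest SB/Sb ovary in 12 of the 20 genes. Without ovary 19G the same 20 genes met the rule, with Sb/Sb means of 25.4% to 70.8% of the SB/SB mean (median 55.3%).

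All 20 genes were also called lower in Sb/Sb than in polygyne SB/SB ovaries by the edgeR fit (Benjamini-Hochberg adjusted p under 0.05), which repeats the choice of the genes. The background was 5.88% of 10797 genes called lower and 14.1% called in either direction. The log2 changes ran between -2.08 ± 0.34 (SE) for LOC105207492 and -0.55 ± 0.14 for LOC105204046, with a median of -1.02 for the members and 0.0082 for all genes tested.

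Measures of whole libraries moved with the same contrast. A set of 378 genes restricted to the ovary (monogyne ovary mean of at least 5 CPM and at least 16 times the brain, so that no member is among them) took 4.68% ± 1.10 of the counts in Sb/Sb ovaries and 6.46% ± 0.742 in polygyne SB/SB ovaries (SD, n = 8 and 7, adjusted p = 0.0149, two-sided exact permutation test, 16 comparisons). SB/Sb ovaries had 5.56% ± 1.25 (adjusted p = 0.172 against polygyne SB/SB, exact permutation test) and monogyne SB/SB ovaries 7.29% ± 0.464. More genes were detected in Sb/Sb (12102 ± 223) and SB/Sb ovaries (11907 ± 125) than in polygyne SB/SB ovaries (11653 ± 88.1), each with an adjusted p of 0.00249 in the same exact permutation tests. Genes restricted to the brain took 0.457% ± 0.204 of the counts in Sb/Sb and 0.222% ± 0.113 in polygyne SB/SB ovaries (adjusted p = 0.0705, exact permutation test). Both sets were chosen in monogyne animals, the ovary set as high and the brain set as low in their SB/SB ovaries. That choice can favour a high share of the ovary set and a low share of the brain set in SB/SB ovaries. The differences in these shares between genotypes are therefore a description.

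The vitellogenin receptor, which takes up yolk protein into the growing egg, was the only marker of the ovary that could be identified by name. It had 186 ± 223 CPM in Sb/Sb, 161 ± 189 in SB/Sb, 249 ± 263 in polygyne SB/SB and 59.0 ± 12.7 in monogyne SB/SB ovaries, and no brain group averaged over 7.69 CPM. Its range was wide in all 3 polygyne groups, and the difference of Sb/Sb from polygyne SB/SB ovaries was small beside it (adjusted p = 0.6998, exact permutation test). Ovaries 19G and 15A had its lowest values in their groups, 11.5 and 22.4 CPM, and the lowest shares of ovary-restricted genes, 2.57% and 3.53%. Other ovaries went the opposite way. In polygyne SB/SB animals, ovaries 1E, 16D and 15D had the highest receptor values, 663, 556 and 293 CPM. Their shares, 5.73%, 6.02% and 5.41%, were the lowest of that group. Receptor and share thus did not rise together in every group.

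With the log2 share of ovary-restricted genes added to the ovary fit, 13 of the 20 genes were called lower in Sb/Sb than in polygyne SB/SB ovaries, and 0.491% of all genes tested (1.7% in either direction). This is again the contrast that chose the genes, so these counts are a description. LOC105194425 then had a log2 change of -2.20 ± 0.31, LOC105193228 -1.60 ± 0.15 and LOC105193134 -1.41 ± 0.21, each a larger difference than without the share. LOC105207492 had -1.14 ± 0.19 in place of -2.08. The 7 genes no longer called were LOC105200462, LOC105202580, LOC105199719, LOC105205995, LOC105205530, LOC105204046 and LOC105201887, with log2 changes between -0.55 and -0.19 and adjusted p between 0.0592 and 0.783. Without ovaries 15A and 19G and with no such term, 20 were called lower and 5.49% of all genes, a count that the choice of the genes largely fixes.

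The SB/Sb ovaries were not used to choose the genes. In all 20 their mean lay between the means of the homozygotes. Set on a scale with Sb/Sb at 100% and polygyne SB/SB at 0%, the SB/Sb mean stood at a median of 60.1% over the members. The range was 10.5% for LOC105193134 to 87.6% for LOC105205995. Since both ends of the scale come from the ovaries that chose the genes, this place is a description.

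**Figure D2:**
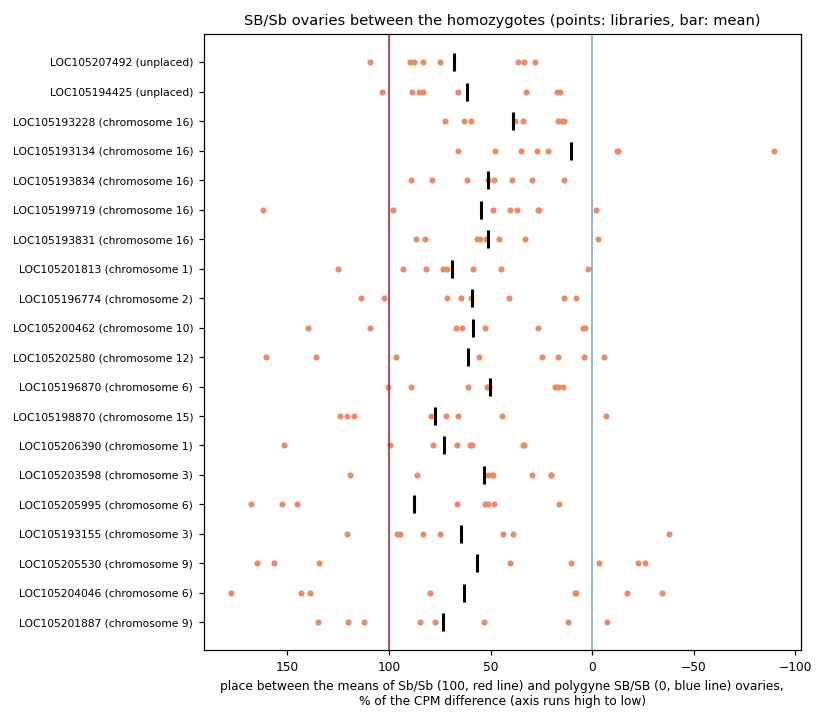
Place of each SB/Sb ovary between the mean of the 8 Sb/Sb ovaries (100, red line) and the mean of the 7 polygyne SB/SB ovaries (0, blue line) for the 20 genes, in percent of the difference in CPM. Points are the 8 SB/Sb libraries and the black bar is their mean. The means of chromosome 16 genes lie between 10.5% and 54.6%, those of the other placed genes between 50.4% and 87.6%.

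The median place was 51.2% for the genes of chromosome 16 and 63.1% for the 13 genes of other chromosomes, a difference that was not tested. LOC105193134 (10.5% ± 48.5, SD over 8 libraries) and LOC105193228 (39.1% ± 23.6) were the lowest. LOC105193831 (51.2%), LOC105193834 (51.4%) and LOC105199719 (54.6%) were close to the middle. LOC105205995 (87.6% ± 58.0), LOC105198870 (77.1% ± 44.7) and LOC105201887 (73.5% ± 51.1) were nearest to Sb/Sb. These SDs over libraries exceed most of the differences between genes.

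Single SB/Sb ovaries reached far. Of the 160 values of 20 genes in 8 SB/Sb ovaries, 99 lay below the lowest SB/SB ovary of the same gene. The matching share of single values was not computed over all genes. The SB/Sb mean lay below the lowest SB/SB ovary in 16 genes, beside 2.98% of the 7988 genes at 5 CPM or more. In 1 member, LOC105206390, all 8 SB/Sb ovaries lay below all 15 SB/SB ovaries (0.0501% of those genes). Its SB/Sb ovaries ranged 39.0 to 88.7 CPM (median 76.1), with 33.2 to 75.0 CPM (median 63.2) in Sb/Sb, 91.2 to 123 CPM (median 103) in polygyne SB/SB and 90.8 to 138 CPM (median 106) in monogyne SB/SB ovaries. Its SB/Sb and Sb/Sb ranges overlapped broadly. The lowest SB/SB ovary, against which these counts are taken, is a value that the rule used. By the choice of the genes it lies above every Sb/Sb ovary in the members, which does not hold for most of the 7988 genes. The counts are therefore a description.

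SB/Sb ovaries were compared with polygyne SB/SB and with Sb/Sb ovaries in the same fit. Each comparison shares a group with the choice of the genes, and both share the SB/Sb ovaries. The choice favours a negative change in both, so the calls and counts of members are a description. Against polygyne SB/SB all 20 log2 changes were negative (median -0.50, and -0.0092 over all genes tested), and 3 genes were called lower, where 0.13% of all genes were (1.66% in either direction). They were LOC105206390 (-0.57 ± 0.13, adjusted p = 0.0150 in edgeR), LOC105193831 (-0.44 ± 0.10, adjusted p = 0.0187 in edgeR) and LOC105201887 (-0.43 ± 0.11, adjusted p = 0.0321 in edgeR). DESeq2 called 11 lower, where 0.398% of all genes were, and a fit of only the compared groups 0, where 0.0588% were.

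Sb/Sb against SB/Sb also gave 20 negative changes (median -0.51, and 0.0066 over all genes), and 4 genes were called lower, where 0.13% of all genes were (0.139% in either direction). All 4 lie on chromosome 16: LOC105193228 (-0.94 ± 0.14, adjusted p = 0.000366 in edgeR), LOC105193134 (-1.08 ± 0.18, adjusted p = 0.002845 in edgeR), LOC105193834 (-0.64 ± 0.14, adjusted p = 0.0465 in edgeR) and LOC105193831 (-0.53 ± 0.10, adjusted p = 0.0117 in edgeR). The median over the chromosome 16 genes was -0.64, over the 13 of other chromosomes -0.31 and over the 2 without a chromosome -0.95. The fifth gene of chromosome 16, LOC105199719, had -0.53 ± 0.26 (adjusted p = 0.705 in edgeR). A fit of only the compared groups called 2 lower, where 0.0583% of all genes were. The Sb/Sb ovaries compared here are those that chose the genes as low, so these calls are a description. The difference between chromosomes was not tested.

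Within the 8 SB/Sb ovaries, the members were set against the share of ovary-restricted genes, which ranged 3.53% to 7.08% there. LOC105207492 followed that share most closely, with Pearson's r of 0.97 (p = 0.00062, adjusted p = 0.00794 over 20 genes) and Spearman's rho of 0.95 (p = 0.00114, adjusted p = 0.0223), all by two-sided exact permutation tests with n = 8. Without the 2 libraries farthest from the median share, 15A and 20A, its r was 0.93. LOC105205995 had r of 0.90 (p = 0.00283, adjusted p = 0.0161) and rho of 0.93 (p = 0.00223, adjusted p = 0.0223) by the same exact permutation tests, and r of 0.86 without those libraries.

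LOC105193228 of chromosome 16 went the other way, with r of -0.85 (p = 0.0111, adjusted p = 0.0309) and rho of -0.81 (p = 0.0218, adjusted p = 0.0544) by exact permutation tests with n = 8, and r of -0.76 without 15A and 20A. Over the 13 genes of other chromosomes r had a median of 0.83 and ranged 0.44 to 0.92, and over the 5 of chromosome 16 a median of 0.27 with a range of -0.85 to 0.66. In all, 10 of 20 genes had an adjusted p under 0.05 for r and 3 for rho, counts that were not taken over all genes. An r of at least 0.7 was found in 11 members, and in 11.2% of the 7988 genes at 5 CPM or more, whose median r was 0.048. Both measures are shares of the same library total. The members were chosen as low in Sb/Sb ovaries, where the share of ovary-restricted genes was lower too. That choice can favour genes that follow the share, so these counts of members are a description.

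**Figure D3:**
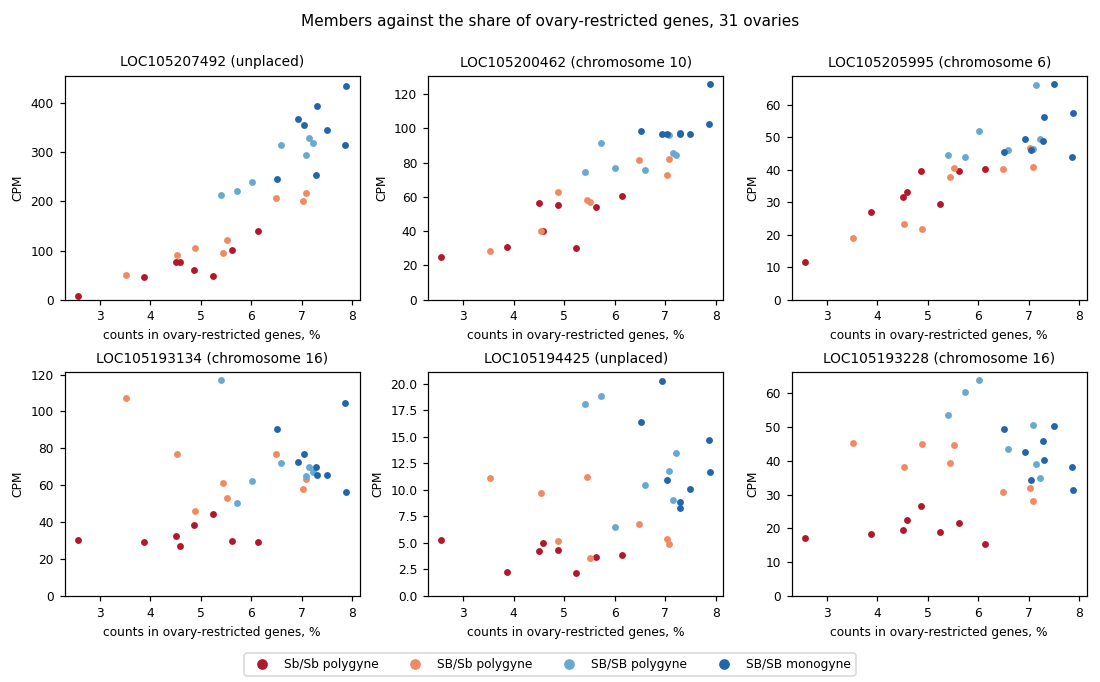
CPM of 6 members in 31 ovaries against the share of counts in 378 ovary-restricted genes, the 3 with the highest and the 3 with the lowest r among the SB/Sb ovaries. Points are libraries, coloured by group. In LOC105207492, LOC105200462 and LOC105205995 levels are higher at higher shares in the groups with Sb. In LOC105193134, LOC105194425 and LOC105193228, r among the SB/Sb ovaries was -0.43, -0.55 and -0.85. In all 6 panels the Sb/Sb ovaries lie below the SB/SB ovaries by the choice of the genes.

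Between the social forms no member was called in the fit of all ovaries. Polygyne SB/SB and monogyne SB/SB ovaries gave 0 members called in edgeR, where 1.05% of all genes were called in either direction and 0.102% lower. An unadjusted p under 0.05 was found in 0 members and in 20.3% of all genes. DESeq2 called 0 members and 968 of 10797 genes in either direction, and voom 0 members and 144 genes. The median log2 change in edgeR was -0.12, and 15 of 20 were negative. A fit of only these groups called 3, all lower in polygyne animals, where 1.61% of all genes were called lower and 10.5% in either direction: LOC105200462 (-0.34 ± 0.08, adjusted p = 0.0325 in edgeR), LOC105205530 (-0.26 ± 0.07, adjusted p = 0.0328 in edgeR) and LOC105204046 (-0.27 ± 0.07, adjusted p = 0.0364 in edgeR). LOC105200462 averaged 83.5 ± 8.42 CPM in polygyne and 101 ± 10.04 CPM in monogyne SB/SB ovaries (SD, n = 7 and 8), and its highest polygyne ovary, 96.3 CPM, lay just under its lowest monogyne ovary, 96.6 CPM. The rule did not use the difference between the forms, but it required both to lie above every Sb/Sb ovary. That requirement can remove genes that are low in either form. With polygyne SB/SB ovaries only, 35 genes met the rule. The counts of members in this comparison are therefore a description.

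The brains of the same animals were not used to find the separation; of them, the rule used only the monogyne means, for its limit on ovary over brain. In Sb/Sb against polygyne SB/SB brains, 1 of the 20 genes was called, where 0.962% of 10704 genes were called in either direction and 0.355% lower. That gene was LOC105207492. Its brain levels ranged 0 to 3.12 CPM (median 1.14) in Sb/Sb, 6.73 to 50.6 CPM (median 14.7) in SB/Sb, 14.1 to 80.8 CPM (median 43.5) in polygyne SB/SB and 17.5 to 53.4 CPM (median 33.0) in monogyne SB/SB animals. Every Sb/Sb brain lay below every brain of the other groups, and SB/Sb overlapped both SB/SB groups. All 8 Sb/Sb brains lay below all 8 polygyne SB/SB brains in 0.14% of the genes tested.

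The mean of LOC105207492 was 1.14 ± 0.973 CPM in Sb/Sb, 20.0 ± 14.5 in SB/Sb, 44.0 ± 24.7 in polygyne SB/SB and 32.8 ± 14.2 in monogyne SB/SB brains (SD, n = 8 each). Its Sb/Sb brains held 0 to 76 counts, and the polygyne SB/SB brains 307 to 1058. The log2 change of Sb/Sb over polygyne SB/SB was -5.14 ± 0.62 (adjusted p = 1.58e-06 in edgeR). Sb/Sb over SB/Sb gave -4.05 ± 0.59 (adjusted p = 0.000177 in edgeR), the only member called there, where 0.159% of all genes were called in either direction and 0.149% lower. SB/Sb over polygyne SB/SB gave -1.09 ± 0.52 (adjusted p = 0.999 in edgeR). In the ovary, in the contrast that chose the gene, the log2 change was -2.08 ± 0.34.

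**Figure D4:**
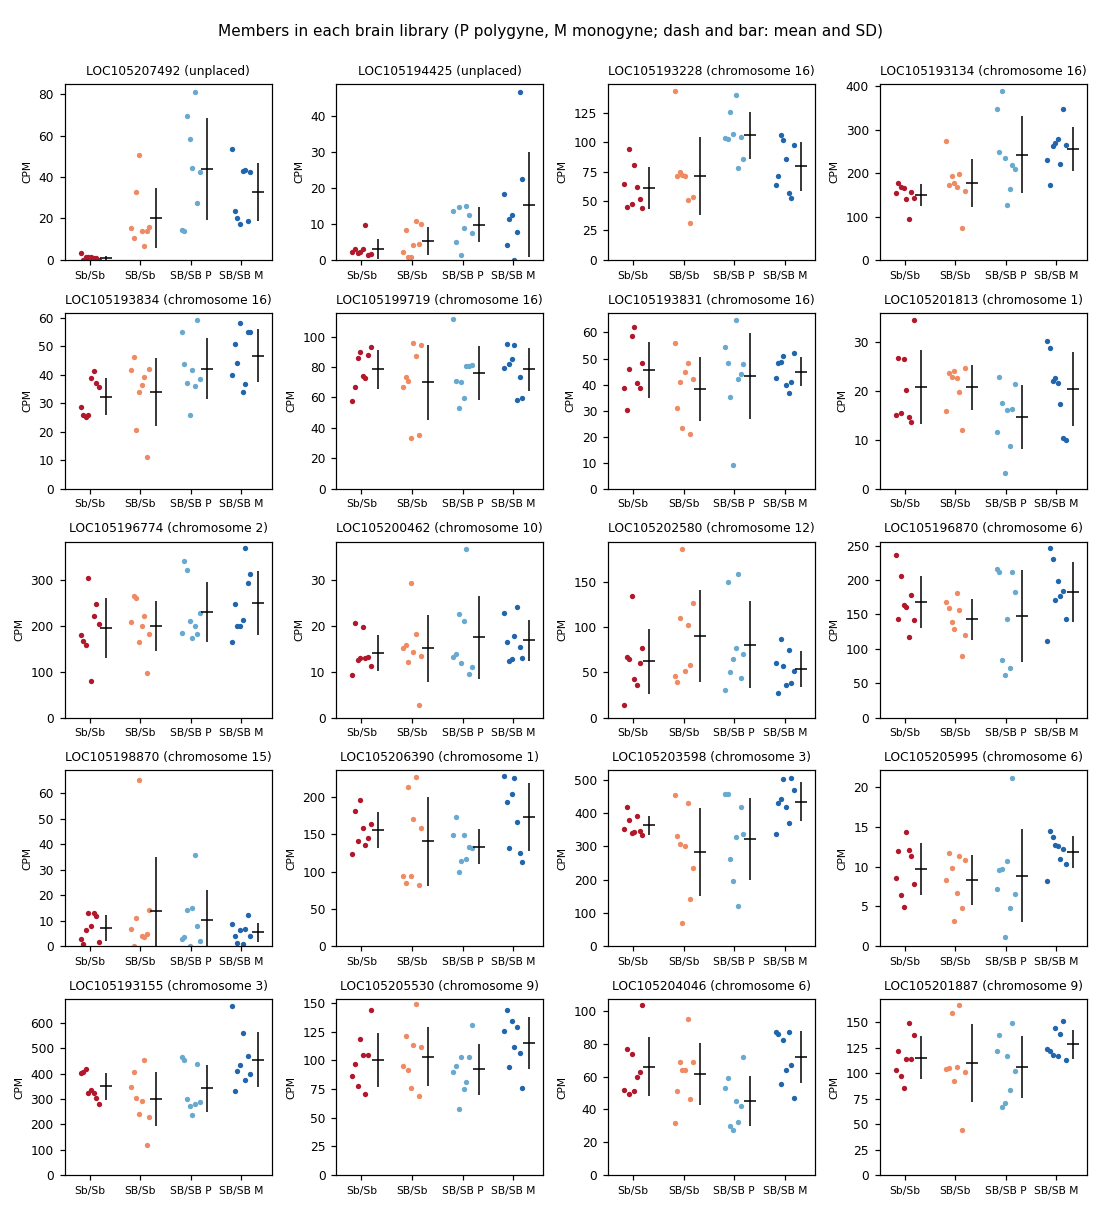
Brain CPM of the same 20 genes in each of 32 libraries, 1 panel a gene. Points are libraries and the dash with its bar is the group mean with its SD (n = 8). LOC105207492 is near 0 in all Sb/Sb brains, and in most other panels the groups overlap.

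The next members by unadjusted p in Sb/Sb against polygyne SB/SB brains did not pass the adjustment. LOC105193228 had -0.76 ± 0.24 (adjusted p = 0.110 in edgeR) and LOC105193134 -0.72 ± 0.23 (adjusted p = 0.117 in edgeR). LOC105193228 ranged 44.1 to 94.1 CPM (median 56.7) in Sb/Sb, 31.6 to 144 CPM (median 71.4) in SB/Sb, 78.4 to 140.4 CPM (median 104) in polygyne SB/SB and 52.7 to 106 CPM (median 78.5) in monogyne SB/SB brains, and 6 of its 8 Sb/Sb brains lay below the lowest polygyne SB/SB brain. LOC105193134 ranged 93.7 to 176 CPM (median 155) in Sb/Sb, 72.6 to 275 CPM (median 175) in SB/Sb, 126 to 389.8 CPM (median 227) in polygyne SB/SB and 172 to 347 CPM (median 263) in monogyne SB/SB brains, with 1 Sb/Sb brain below the lowest polygyne SB/SB brain. In both genes the lowest SB/Sb value came from brain 30A, where the members summed to 964 CPM (group median 1995). Genes restricted to the brain took 37.0% of the counts of brain 30A (group median 14.7%). DESeq2 called both genes lower in Sb/Sb (adjusted p = 0.0379 and 0.0436), where 4.2% of all genes were called lower. Voom called LOC105193228 (adjusted p = 0.0150), where 0.355% were.

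LOC105194425 had a log2 change of -1.62 ± 0.69 in the same comparison (adjusted p = 0.219 in edgeR). Its brain levels were low and scattered, 1.37 to 9.70 CPM (median 2.13) in Sb/Sb, 0.920 to 10.8 CPM (median 4.32) in SB/Sb, 1.38 to 14.9 CPM (median 10.7) in polygyne SB/SB and 0 to 46.6 CPM (median 11.9) in monogyne SB/SB animals, and 1 monogyne brain held 0 counts. LOC105204046 of chromosome 6 leaned the other way, with 0.54 ± 0.20 (adjusted p = 0.159 in edgeR) and a mean of 66.2 ± 18.2 CPM in Sb/Sb brains against 45.2 ± 15.5 in polygyne SB/SB brains. With these, 5 of the 20 had an unadjusted p under 0.05, and so had 16.5% of all genes.

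The other members had no unadjusted p under 0.05 in that comparison. The median log2 change of the 20 was 0.048 with 9 negative, beside -0.019 over all genes tested. Its sign turned with voom (-0.099 with 13 negative) and without brains 1E, 16C, 16D and 30A (-0.11 with 15 negative). Over the 13 genes of other chromosomes it was 0.14 with 4 negative, and it turned in the same fits, to -0.062 with voom and -0.073 without those brains. Over the 5 of chromosome 16 it was -0.38 with 3 negative, and -0.55 with voom and -0.53 without those brains, with 4 negative in each. The interval of 2 SE around the brain change was -0.12 to 0.58 for LOC105206390, -0.21 to 0.46 for LOC105205530 and -0.31 to 0.41 for LOC105199719. LOC105198870, which had 0 counts in some brains, had a wider interval, -2.04 to 1.27. The difference between the tissues was not tested, since the ovary changes come from the values that chose the genes.

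**Figure D5:**
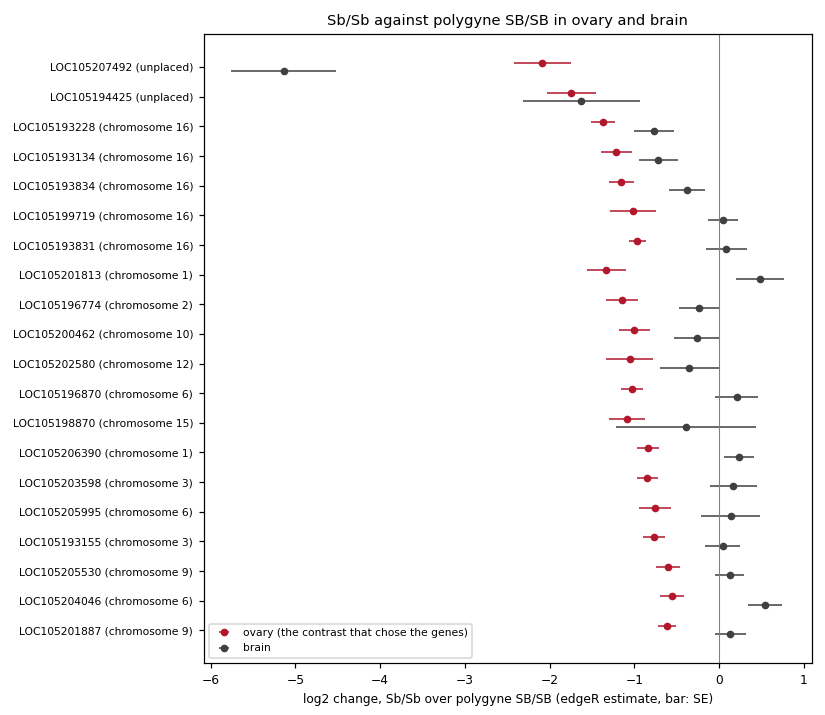
Log2 change of Sb/Sb over polygyne SB/SB for the 20 genes in the ovary (red, the contrast that chose them) and in the brain (grey), as the edgeR estimate with its SE. All 20 ovary changes lie between -2.08 and -0.55. In the brain LOC105207492 lies at -5.14, and 11 of the 20 genes lie above 0 (7 with voom and 5 without brains 1E, 16C, 16D and 30A).

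SB/Sb against polygyne SB/SB brains gave 0 members called in edgeR, where 0.252% of all genes were. An unadjusted p under 0.05 was found in 3 members and in 3.94% of all genes. Without brains 1E, 16C, 16D and 30A it was found in 0 members and in 335 of 10864 genes. DESeq2 called 0 members and 37 of 10704 genes in either direction, and voom 0 members and 41 genes. In edgeR all 5 genes of chromosome 16 had a negative change, between -0.52 and -0.10, and 13 of the 20 members did. Polygyne against monogyne SB/SB brains likewise gave 0 called in edgeR, where 0.00934% of all genes were. An unadjusted p under 0.05 was found in 2 members and in 18.4% of all genes, and 16 of 20 changes were negative. DESeq2 called 1 of them, LOC105204046 (-0.66 ± 0.20, adjusted p = 0.0384 in DESeq2), with means of 45.2 ± 15.5 CPM in polygyne and 72.0 ± 15.8 CPM in monogyne SB/SB brains. DESeq2 called 0.392% of all genes lower there and 3.34% in either direction. Voom called 0 members, and 3 of 10704 genes in either direction.

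Which tissue held more of each gene was tested in the 8 SB/Sb animals, with the animal as a block. The extraction kit differed between the tissues, so tissue and kit cannot be told apart. In the brain 5 members were higher and 9 lower than in the ovary, where 26.2% and 33.9% of 10430 genes were (60% in either direction). The median log2 change of brain over ovary was -0.53 for the members and -0.22 for all genes tested. LOC105199719 had the largest change toward the ovary, with 69.8 ± 24.4 CPM in the brains and 835 ± 273 CPM in the ovaries (log2 -3.16 ± 0.28, adjusted p = 3.16e-06 in edgeR). LOC105207492 (-2.47 ± 0.50), LOC105193831 (-2.21 ± 0.17), LOC105200462 (-1.72 ± 0.29) and LOC105205995 (-1.64 ± 0.34) followed, with LOC105196870 (-1.60 ± 0.14), LOC105201887 (-1.19 ± 0.17), LOC105193834 (-1.13 ± 0.23) and LOC105204046 (-0.52 ± 0.19).

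LOC105193134 had the largest change toward the brain, with 177 ± 55.7 CPM in the brains and 67.8 ± 19.1 CPM in the ovaries (log2 1.75 ± 0.23, adjusted p = 5.37e-05 in edgeR). LOC105206390 (1.29 ± 0.23), LOC105193228 (1.21 ± 0.22), LOC105193155 (0.66 ± 0.17) and LOC105205530 (0.52 ± 0.20) were also higher in the brain. All 5 genes of chromosome 16 were called, 2 of them higher in the brain and 3 higher in the ovary, where 60% of all genes were called. The rule barred genes nearly confined to the ovary from the members, and such genes remain among all genes tested.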

How the data were processed

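Gene expression was sequenced in 64 libraries, 1 brain and 1 ovary from each of 32 animals, 8 libraries a group. Per the submitters' processing notes, trimming was by Trimmomatic 0.32, alignment by STAR 2.5.3a and counting by featureCounts. For genome build, annotation and featureCounts version, nothing is given in the sources used here. Files deposited by the authors hold raw counts, 15710 genes each, of which 198 transfer RNAs (0.000177% of counts) were left out. Whether reads of the Sb variant aligned as well as those of SB was not tested. The gene table of UNIL_Sinv_3.0, which held 11895 of the 15512 LOC symbols, was used for chromosome, gene order and synonyms. It gave 9 synonyms, and the lists of pathways and cell types matched 0 members, with the vitellogenin receptor the only cell type marker found.

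Levels are CPM by the total of each library. Counts were tested in edgeR 4.0.16 (R 4.3.3) with TMM scaling, low counts removed by filterByExpr (by group, minimum count 10), quasi-likelihood F-tests and Benjamini-Hochberg adjustment over all genes tested, all libraries of a tissue in 1 fit. The SE of a log2 change is its size over the square root of F. Brain was set against ovary in SB/Sb animals with the animal as a block, since a title code names the animal of both. Each p-value treats the animals as separate. Library measures were tested by exact two-sided permutation (SciPy 1.17.1). The steps were tested on simulated data. Alternatives were RLE scaling, DESeq2 1.42.0, voom with quality weights (limma 3.58.1), other count filters, fits of the compared groups only, the title number as a replicate block, and other settings of the rule. The share of ovary-restricted genes as a covariate, the fits without single libraries and the comparison of polygyne with monogyne brains were added after seeing the data.

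The 20 members and the lists were chosen with earlier results of these data known. All members may be named. Neighbours, the genes at the edge of the rule and the 6 genes of the plot against the ovary share were chosen by place, closeness or correlation.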

Additional observations from a re-analysis of the deposited data

Results flagged for a closer look

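In 13 of 160 groups of a member's values (20 genes, 8 groups of libraries), 1 library stood farther from the rest than Dixon's 95% limit allows. Chance flags about 1 in 20 such groups. No explanation was tested.

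In the ovary, animal 19G was the low value among Sb/Sb animals in LOC105199719 (61.2 CPM, next 505 CPM) and in LOC105205995 (11.5 CPM, next 26.9 CPM). Among polygyne SB/SB ovaries, LOC105193134 had a high value of 117 CPM in animal 15D (next 71.9 CPM) and LOC105205995 one of 66.2 CPM in animal 20D (next 52.0 CPM). Among monogyne SB/SB ovaries, animal 232A was high in LOC105200462 (126 CPM, next 103 CPM) and LOC105204046 (204 CPM, next 162 CPM), and animal 233A was low in LOC105193831 (236 CPM, next 260 CPM).

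In the brain, animal 20I stood apart among Sb/Sb animals in LOC105194425, with 9.70 CPM (next 3.04 CPM), and in LOC105193134, with a low 93.7 CPM (next 140 CPM). LOC105207492 had 3.12 CPM in the Sb/Sb brain of animal 104G (next 1.47 CPM), still below every brain of the other groups. Among SB/Sb brains, LOC105193228 had 144 CPM in animal 104A (next 75.1 CPM) and LOC105198870 had 65.2 CPM in animal 16C (next 14.01 CPM). LOC105198870 also had 35.8 CPM in the polygyne SB/SB brain of animal 1E (next 15.1 CPM).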

How the results depend on the processing

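The choice of the genes was sensitive to scaling and depth. With CPM scaled by TMM factors 37 genes met the rule, 19 of them members, with polygyne SB/SB ovaries only 35 (all 20 members among them), and with the shallow ovary 104D kept 0. Members called moved as follows. In brain, Sb/Sb against polygyne SB/SB gave 3 with DESeq2 and 2 with voom in place of 1, and polygyne against monogyne SB/SB gave 1 with DESeq2 in place of 0. In ovary, SB/Sb against polygyne SB/SB gave 11 with DESeq2, 7 with voom, 0 with only the compared groups and 1 with 104D kept, in place of 3. Over all genes there, voom called 44 of 10797 lower, and the fit with 104D kept 48 of 10691. Sb/Sb against SB/Sb gave 2 with only the compared groups in place of 4, and polygyne against monogyne SB/SB gave 3 in place of 0. With the share of ovary-restricted genes as a covariate, 13 were called in Sb/Sb against polygyne SB/SB in place of 20. The cause of these moves was not tested.

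Counts over all genes moved too: in ovary, Sb/Sb against polygyne SB/SB gave 1521 with edgeR, 2447 with voom, 675 with only the compared groups, 959 with the replicate block and 184 with the covariate. In brain the same comparison gave 103 with edgeR and 572 with DESeq2. Over the alternatives, the other counts ran as follows. SB/Sb against polygyne SB/SB gave 80 to 347 in ovary (179) and 12 to 41 in brain (27). Sb/Sb against SB/Sb gave 6 to 48 in ovary (15) and 10 to 27 in brain (17). Polygyne against monogyne SB/SB gave 7 to 1050 in ovary (113) and 0 to 358 in brain (1). The value in brackets is that of the edgeR fit in the report.

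The labels do not say what the title numbers stand for, and whether they pair the animals is not settled. Deviations of same-numbered ovaries had a median correlation of 0.33 (14 of 20 pairs over 0.1), against -0.018 for different numbers (64 of 156). In brains it was 0.091 (11 of 22), against -0.014 (41 of 170). Of the libraries that share a number, 6 of 22 ovaries and 9 of 23 brains correlated best with one of their own number. With the title number as a replicate block, members called were 0 in SB/Sb against polygyne SB/SB ovaries, 2 in Sb/Sb against SB/Sb ovaries, 17 in Sb/Sb against polygyne SB/SB ovaries and 1 in Sb/Sb against polygyne SB/SB brains. All were called lower. Over all genes, the same fits called 5, 8 and 349 of 10641 lower in ovary, in that order, and 25 of 10404 lower in brain.

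None of the brain changes of Sb/Sb over polygyne SB/SB that turned sign had been called. With voom, they were LOC105200462 (0.078), LOC105196870 (-0.10), LOC105198870 (0.16), LOC105193831 (-0.10), LOC105203598 (-0.062), LOC105205995 (-0.14), LOC105193155 (-0.13) and LOC105201887 (-0.093). With brains 1E, 16C, 16D and 30A left out, they were LOC105196870 (-0.051), LOC105193831 (-0.13), LOC105203598 (-0.073), LOC105205995 (-0.17), LOC105193155 (-0.075) and LOC105201887 (-0.018). The median place of SB/Sb ovaries was 53.9% to 63.8% over its alternatives, beside 60.1%. Low and scattered levels limit what can be said of LOC105194425 and LOC105198870 in the brain. LOC105194425 had 0 counts in brain 233A (18.1 M counts), and LOC105198870 in brains 107A (20.1 M) and 16D (18.1 M). The shallowest brain, 1E, held 9.46 M.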
